A study of Mus musculus with 98 samples.

Results

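Of 8107 m6A regions found in both peak lists of undifferentiated mouse TBLC, 2459 (30.3%) held no peak in either list of the differentiated cells. These are called lost regions here, and the other 5648 are called retained. TBLC are totipotent blastomere-like cells, a cultured state that resembles cells of the early cleavage embryo. Peaks of one strand that shared at least 1 base were merged, a region had to hold a peak of both TBLC_Ctrl lists, and a lost region was one that no diffTBLC peak of its strand touched. Members were thus chosen by peak overlap in the TBLC_Ctrl and diffTBLC lists, and what those lists say of them is given as a description, with no test. The TBLC_PlaB- lists played no part in the choice.

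The lists came from immunoprecipitations with one anti-m6A antibody (New England Biolabs E1610S) in 3 states with 2 replicates each. TBLC_Ctrl were kept in 2MYCP medium. TBLC_PlaB- had spent 8 h in SLM medium, and diffTBLC had spent 3 days in it. The labels of these samples give no genotype and no siRNA. Whether the replicates came from separate cultures is not stated, so the spread between them may be technical.

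N6-methyladenosine (m6A) is the most common internal mark on messenger RNA. It is written mostly by METTL3 and METTL14 with partners such as WTAP and VIRMA, removed by FTO and ALKBH5, and read by YTH-domain and IGF2BP proteins. In mouse embryonic stem cells the mark is known for shortening the life of transcripts that hold the cells in their state. A peak in such an immunoprecipitation marks a stretch of RNA recovered by the antibody, so it needs a transcript that is present as well as methylated. Input libraries of these samples were not analysed here. A region listed in TBLC_Ctrl and absent from diffTBLC because its transcript fell therefore cannot be told apart from one whose methylation fell.

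The lists were similar in length, with 11117 and 10496 peaks in TBLC_Ctrl, 10143 and 10443 in TBLC_PlaB-, and 12297 and 10478 in diffTBLC. The lowest peak score was 20 in every list. Scores are the authors' own values of unstated scale, and they serve here only to describe and rank peaks within a list. Peaks of the TBLC_Ctrl lists merged into 13139 regions. The 8107 with a peak of both lists made up 74.1% of the regions with a replicate 1 peak and 78.7% of those with a replicate 2 peak. Positions are on mm39, the build named in the submitters' processing notes. No annotation of mm39 was used here, so regions are given by position and strand, without a gene and without their sequence.

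Both diffTBLC lists lacked largely the same regions. The share of 30.3% had a 95% Wilson interval of 29.3% to 31.3%, which covers counting error over regions and not the spread between cultures. Replicate 1 of diffTBLC lacked 2929 of the 8107 regions, and 84.0% of these were also missing from replicate 2. Of the regions present in replicate 1, 10.9% were missing from replicate 2. Replicate 2 lacked 3021 regions, of which 81.4% were missing from replicate 1, against 9.24% of the regions that replicate 2 held. Of the retained regions, 4616 had a peak in both diffTBLC lists and 1032 had one in only 1 of them.

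The highest-scoring lost regions were short. Members were ranked by the lower of their TBLC_Ctrl scores, and the first 10 were 153 to 209 bases wide with scores of at least 850 in both TBLC_Ctrl lists. The region at chr7:110651433-110651585 on the plus strand (153 bases) came first, with scores of 1427 and 1457. It had no peak in either TBLC_PlaB- list, and the nearest diffTBLC peak lay 18434 bases away. The region at chr3:5925404-5925612 on the plus strand scored 777 and 814 in the TBLC_PlaB- lists, beside 1319 and 1827 in the TBLC_Ctrl lists. It stood alone, with its nearest retained region 10332766 bases away on the same strand.

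The first 10 split into 6 regions that both TBLC_PlaB- lists still held and 4 that neither held. Among the 6, chrX:73358925-73359082 on the plus strand scored 1395 and 1373 in TBLC_PlaB-, beside 1020 and 881 in TBLC_Ctrl. The region at chr9:53068545-53068740 on the minus strand scored 1134 and 971 in TBLC_PlaB-, beside 1231 and 1000 in TBLC_Ctrl. These regions scored high in TBLC_Ctrl and after 8 h in SLM, and neither list held them after 3 days. The remaining 3 of the 6 were chr10:62595958-62596110 (minus strand, 1057 and 1003 in TBLC_PlaB-, 962 and 1024 in TBLC_Ctrl), chr19:60758405-60758568 (minus strand, 993 and 943 in TBLC_PlaB-, 922 and 1061 in TBLC_Ctrl) and chrX:105012739-105012899 (minus strand, 1050 and 816 in TBLC_PlaB-, 901 and 860 in TBLC_Ctrl).

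The 4 regions that were already missing from both TBLC_PlaB- lists were likewise narrow and high in TBLC_Ctrl. Besides the first-ranked region on chromosome 7, the region at chr5:77145943-77146109 on the plus strand (167 bases) scored 1081 and 1122 in TBLC_Ctrl. The region at chr12:9041499-9041657 on the plus strand (159 bases) scored 886 and 993, and a diffTBLC peak lay 197 bases from it. The region at chr2:119542372-119542547 on the plus strand (176 bases) scored 850 and 870. Next in this class came chr17:56873966-56874127 on the minus strand (162 bases), which scored 835 and 877 and had a retained region 274 bases away.

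Some lost regions lay close beside sites that stayed. A retained region of the same strand lay 952 bases from the chromosome 19 region above and 1869 bases from the first chromosome X region. In both cases one region of a neighbourhood was absent from diffTBLC while another was listed there.

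Lost regions scored lower in TBLC_Ctrl than retained ones, although the ranges overlapped almost entirely. Lost regions had median scores of 151 in replicate 1 and 141 in replicate 2, against 243 and 227 for retained regions. Their scores ran from 20 to 1427 in replicate 1 and from 20 to 1827 in replicate 2. The middle 50% of lost regions lay between 85.5 and 258.5 in replicate 1 and between 84.5 and 236 in replicate 2. On the rank scale of each list, the median lost region stood at percentile 42.5 in replicate 1 and 41.4 in replicate 2, against 64.6 and 63.4 for the median retained region. Regions retained in only 1 diffTBLC list lay between, with medians of 181 and 171.

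The share lost fell step by step with rising TBLC_Ctrl score. The TBLC regions were ranked by the lower of their 2 scores and split into 10 bins of about equal size. Of the lowest bin (scores 20 to 51) 56.1% were lost, of the fifth (129 to 159) 30.5%, and of the highest (457 to 1847) 13.2%. The highest bin held 107 lost regions and the lowest bin 457. At the lower edge, 14 lost regions had a lower score of 20, the lowest value in the lists. One of these, at chr16:11038482-11038779 on the minus strand, scored 20 in both TBLC_Ctrl replicates and was in no TBLC_PlaB- list. Another, at chr17:36284259-36284702 on the minus strand, scored 114 and 83 in TBLC_PlaB-, beside 70 and 20 in TBLC_Ctrl.

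**Figure D1:**
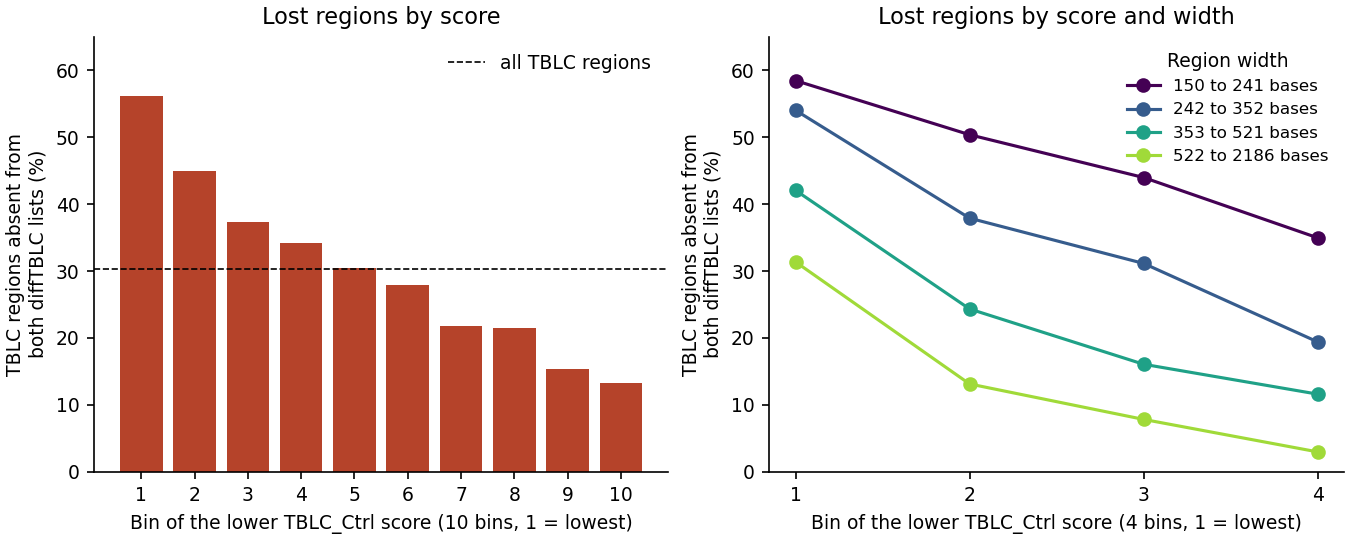
Share of TBLC regions absent from both diffTBLC lists (y axis, percent). Left, by 10 bins of the lower TBLC_Ctrl score, where the bars fall from 56.1% to 13.2% and the dashed line marks 30.3% for all regions. Right, by 4 bins of that score with a line for each of 4 bins of region width, where narrower regions were lost more often in every score bin. Wider regions are more easily touched by a peak under the overlap rule.

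Width differed between the groups as well, but it is not independent of the choice. A single shared base counts as overlap, so a wider region is more easily touched by a diffTBLC peak. Lost regions were 273 bases wide at the median, with the middle 50% between 191 and 372 bases and a range of 150 to 1450. Retained regions were 399 bases wide at the median, with the middle 50% between 270 and 578 bases. Regions of at least 1000 bases made up 23 of 2459 lost regions (0.935%) and 257 of 5648 retained regions (4.55%). More than 1 peak of a single list fell into 1.71% of lost regions and 5.33% of retained regions. Among TBLC regions of 150 to 241 bases 46.4% were lost, and among those of 522 to 2186 bases 10.9% were lost.

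Score and width each kept their order within levels of the other, with each split into 4 bins of about equal size. In the lowest score bin (20 to 90), 58.5% of the narrowest regions (up to 241 bases) and 31.4% of the widest (from 522 bases) were lost. In the highest score bin (282 to 1847), 35.0% of the narrowest and 2.98% of the widest regions were lost. There were 705 regions in the bin that was both widest and highest in score, and nearly all had a diffTBLC peak.

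Lost regions of high score tended to be narrow, while retained regions of high score tended to be wide. Across lost regions the lower score and the width had a Spearman correlation of -0.21 (n = 2459 regions), and across retained regions one of 0.13 (n = 5648). These are descriptions across regions of the same pair of lists. From the lowest to the highest of the 4 score bins, the median width of lost regions was 297, 261, 243 and 209 bases. That of retained regions was 352, 382, 424 and 442.5 bases over the same bins. Regions of 200 bases or less made up 27.8% of the lost and 13.0% of the retained regions. In the highest score bin they made up 47.1% of the lost and 14.2% of the retained regions.

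**Figure D2:**
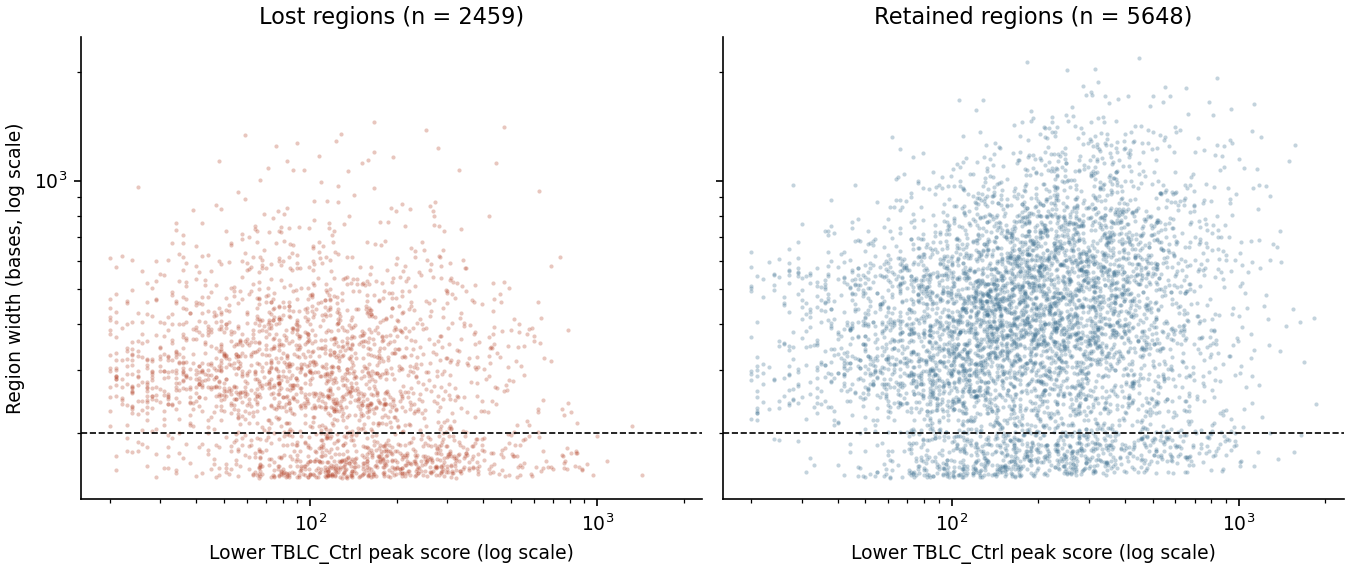
Width of each region in bases against the lower of its TBLC_Ctrl scores, both on log scales, for 2459 lost regions (left) and 5648 retained regions (right). The dashed line marks 200 bases. Lost regions of high score lie mostly near the line or below it, and the retained regions reach widths of over 1000 bases at the same scores.

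The 3 widest members were in both TBLC_PlaB- lists. The widest lost region, at chr4:147667337-147668786 on the plus strand (1450 bases), scored 193 and 209 in TBLC_PlaB-, beside 339 and 166 in TBLC_Ctrl. The region at chr11:48756552-48757959 on the minus strand (1408 bases) scored 324 and 561 in TBLC_PlaB-, beside 489 and 474 in TBLC_Ctrl. The third, at chr1:132865310-132866688 on the plus strand (1379 bases), scored 210 and 400 in TBLC_PlaB-, beside 294 and 253 in TBLC_Ctrl. The nearest diffTBLC peaks lay 2468, 48782 and 127754 bases from these 3 regions. They were picked for their width after the values had been seen.

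Most lost regions were still listed after 8 h in SLM, but fewer than of the retained regions. Replicate 1 of TBLC_PlaB- held a peak in 65.1% of lost regions and 90.4% of retained regions, and replicate 2 in 66.7% and 91.4%. The means of the lists were 65.9% ± 1.18 for lost regions and 90.9% ± 0.714 for retained regions (SD, n = 2 lists). The gap was far larger than the difference between the lists. With 2 lists an exact paired test cannot go below a two-sided p of 0.5, so none is given. Over all 8107 regions, 744 (9.18%) were absent from both TBLC_PlaB- lists, against the 30.3% absent from both diffTBLC lists.

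By class, 1299 lost regions (52.8%) were in both TBLC_PlaB- lists, 643 (26.1%) were in 1 and 517 (21.0%) were in neither. Regions retained in 1 diffTBLC list stood at 71.9%, 19.7% and 8.43% over the same classes. Regions retained in both diffTBLC lists stood at 88.8%, 8.15% and 3.03%. The share in neither TBLC_PlaB- list thus fell in steps with the number of diffTBLC lists that held the region. Over the same groups the median of the lower TBLC_Ctrl score rose (113, 138 and 198). The median width rose as well (273, 325 and 424 bases), so the steps are not independent of score and width.

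The gap at 8 h was present at every level of TBLC_Ctrl score. In the lowest of the 4 score bins, 57.2% and 59.8% of lost regions were in the TBLC_PlaB- lists, against 80.5% and 81.7% of retained regions. In the highest score bin the shares were 76.6% and 76.9% for lost and 96.7% and 96.1% for retained regions. In each of the 4 bins both lists held a smaller share of lost than of retained regions. Neither TBLC_PlaB- list held 13.5% of the lost regions in the highest bin, against 1.76% of the retained regions.

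**Figure D3:**
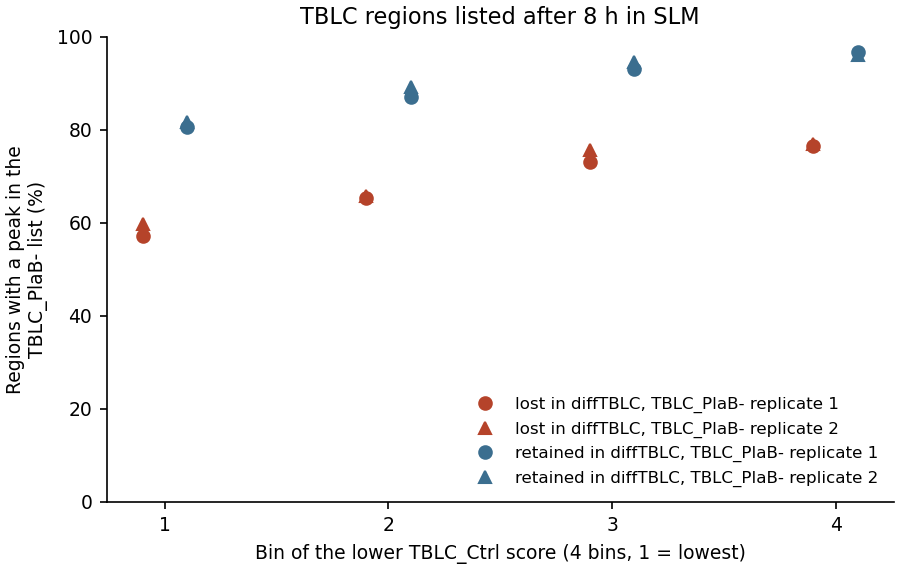
Percent of regions with a peak in each TBLC_PlaB- list (y axis) by 4 bins of the lower TBLC_Ctrl score (x axis), with circles for replicate 1 and triangles for replicate 2. Lost regions lie between 57.2% and 76.9% and retained regions between 80.5% and 96.7%, with the lost below the retained in every bin.

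Narrow lost regions were listed at 8 h less often than wider ones, though a wider region is also more easily touched by a TBLC_PlaB- peak. Of the 684 lost regions of 200 bases or less, 58.8% and 57.7% were in the TBLC_PlaB- lists, against 78.8% and 79.2% of the retained regions of that width. Of the 1775 wider lost regions, 67.5% and 70.2% were listed, against 92.1% and 93.2% of the wider retained regions. In the highest score bin, the narrow lost regions were listed in 67.3% and 68.0% of cases and the wider lost regions in 84.9% of cases in each list. In each of the 4 score bins both lists held a smaller share of the narrow than of the wider lost regions.

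The 3 classes of lost region also differed in TBLC_Ctrl itself. Members in both TBLC_PlaB- lists had median TBLC_Ctrl scores of 176 and 165 and a median width of 296 bases. Those in 1 list had medians of 140 and 131 and a width of 257 bases. Those in neither list had medians of 116 and 112 and a width of 242 bases. The regions missing already at 8 h were thus the lowest and narrowest in TBLC_Ctrl, apart from high-scoring ones such as those on chromosomes 7, 5, 12 and 2. Within the TBLC_PlaB- lists, the listed lost regions stood at a median percentile of 43.3 in replicate 1 and 43.1 in replicate 2, against 64.1 and 64.9 for the listed retained regions.

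Lost regions were spread over the genome without a preference for a strand. On the plus strand 1243 of 4083 TBLC regions (30.4%) were lost, and on the minus strand 1216 of 4024 (30.2%). Among the autosomes and chromosome X the share lost ran from 26.3% on chromosome 2 to 34.7% on chromosome 3. Chromosome Y held 15 TBLC regions, of which 7 were lost.

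Within 5000 bases, retained regions were neighbours of lost ones nearly as often as of each other, and at shorter range less often. A retained region lay within 500 bases of 10.9% of lost and 15.1% of retained regions. Within 1000 bases the shares were 15.7% and 19.7%. A retained region of the same strand lay within 5000 bases of 680 lost regions (27.7%, Wilson interval 25.9% to 29.5%) and of 1688 other retained regions (29.9%). The interval takes regions as independent, which neighbours are not, and leaves out the spread between cultures. It is no test of the difference. Another lost region lay within 5000 bases of 414 lost regions (16.8%) and of 768 retained regions (13.6%). The remaining 1779 lost regions had no retained region that near. Those with such a neighbour were in the TBLC_PlaB- lists in 69.4% and 67.8% of cases, and those without one in 63.4% and 66.3%. The 5 most isolated members lay 10684629 to 10946184 bases from any retained region of their strand.

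Few lost regions had a new region beside them. Both diffTBLC lists shared 3030 regions that no TBLC_Ctrl peak touched, of 8670 regions common to the diffTBLC lists. Such a region lay within 5000 bases of 81 lost regions (3.29%) and of 295 retained regions (5.22%). In 3 lost regions it lay within 100 bases. The widest of these was chr10:62714064-62715183 on the minus strand (1120 bases), 72 bases from a new region, with scores of 248 and 178 in TBLC_PlaB- and 237 and 151 in TBLC_Ctrl. It was picked after the values had been seen. Any diffTBLC peak of the same strand lay within 500 bases of 322 lost regions (13.1%) and within 5000 bases of 882 (35.9%). Loss here is thus a statement about a position, since a peak of the same transcript may sit next to it.

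Peaks on the opposite strand were rarely found over lost regions. A diffTBLC peak of the other strand overlapped 30 lost regions (1.22%) and 542 retained regions (9.60%). Retained regions hold a diffTBLC peak of their own strand by the rule and are wider, so this contrast is not independent of the choice. A TBLC_Ctrl peak of the other strand overlapped 78 lost regions (3.17%) and 290 retained regions (5.13%).

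The boundary of the choice was sharp by construction and its closest cases were few. The lost regions nearest to a diffTBLC peak were 19, 20 and 23 bases from it, on chromosomes 5, 6 and 7. The retained regions with the shortest overlap shared 4, 5 and 7 bases with a diffTBLC peak, on chromosomes 1, 11 and 12. Each of these 3 retained regions was held by only 1 diffTBLC list.

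Lost regions without a retained neighbour formed mostly single sites. Chained at up to 5000 bases, with no retained region within that distance of any of them, 1775 lost regions fell into 1639 stretches. Of these stretches 1530 held 1 region, 93 held 2 and 14 held 3. A pair of long stretches stood out, one of 9 regions and one of 8.

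The stretch of 9 lay at chr17:22595056-22607843 on the plus strand, over 12788 bases. Its TBLC_Ctrl scores ran from 47 to 809 in replicate 1 and from 49 to 501 in replicate 2. The highest region, at chr17:22597300-22597685, was the only one in both TBLC_PlaB- lists, at 161 and 146, beside 809 and 501 in TBLC_Ctrl. The widest, at chr17:22601524-22602752 (1229 bases), scored 38 in replicate 2 of TBLC_PlaB- and was absent from replicate 1, beside 354 and 278 in TBLC_Ctrl. Of the 9 regions, 4 were in 1 TBLC_PlaB- list and 4 were in neither. No diffTBLC peak of that strand lay within 68971 bases, so the whole stretch was without a peak after 3 days.

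The stretch of 8 lay at chr10:27662601-27674905 on the minus strand, over 12305 bases, and largely persisted at 8 h. Both TBLC_PlaB- lists held 6 of its regions, 1 list held another, and neither held the last. Its TBLC_Ctrl scores ran from 84 to 281 in replicate 1 and from 59 to 271 in replicate 2. The widest region, at chr10:27673569-27674905 (1337 bases), scored 263 and 182 in TBLC_PlaB-, beside 281 and 59 in TBLC_Ctrl. The one absent at 8 h, at chr10:27673021-27673393, had scored 151 and 220 in TBLC_Ctrl. The nearest diffTBLC peak lay 13254 bases away.

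**Figure D4:**
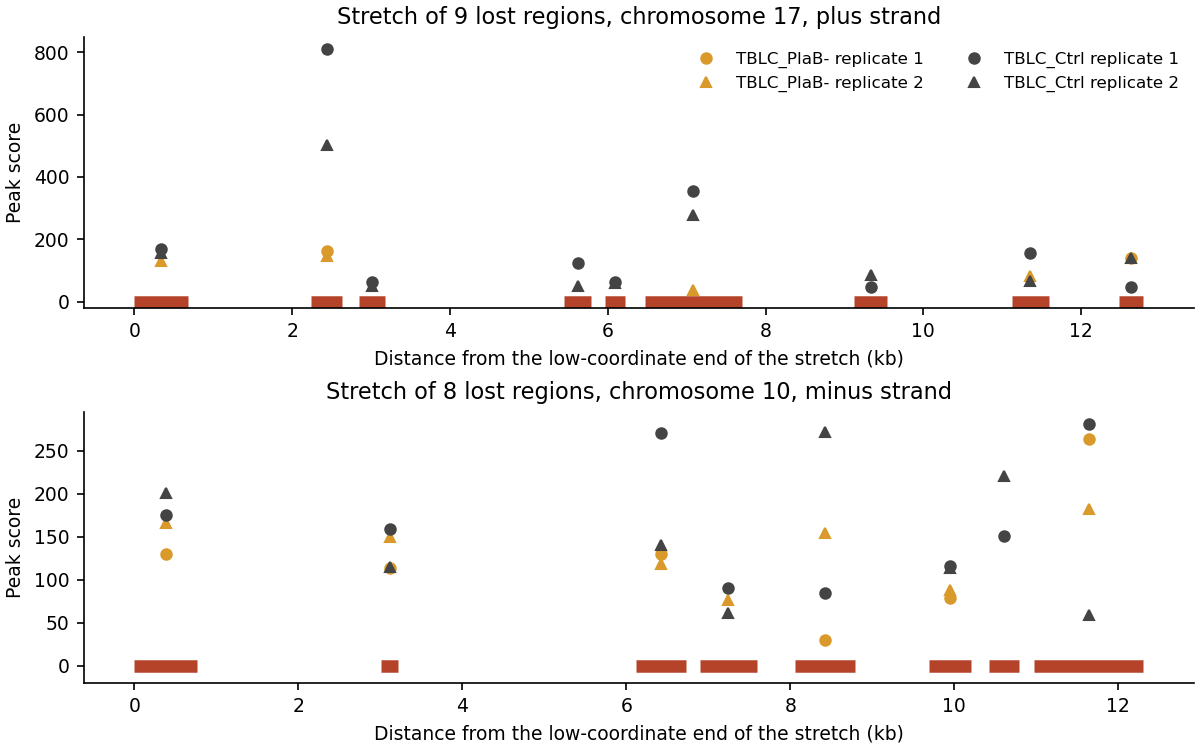
Peak scores along the stretches of 9 (top) and 8 (bottom) lost regions, against the distance in kb from the low-coordinate end. Red bars mark the regions, orange symbols TBLC_PlaB- scores and grey symbols TBLC_Ctrl scores (circles replicate 1, triangles replicate 2), and a list without a peak has no symbol. In the top stretch 4 of 9 regions lack both orange symbols, and in the bottom stretch 1 of 8 does.

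Of the 14 stretches of 3, the 3 with the highest summed scores held no region that was missing from both TBLC_PlaB- lists. At chr2:75491973-75495513 on the plus strand, the first region scored 645 and 603 in TBLC_PlaB-, beside 718 and 652 in TBLC_Ctrl. The last region of this stretch was weak, at 50 in a single TBLC_PlaB- list, beside 58 and 113 in TBLC_Ctrl. At chr5:21966700-21973837 on the minus strand, the last region scored 350 and 356 in TBLC_PlaB-, beside 351 and 420 in TBLC_Ctrl. At chr3:91074870-91076779 on the plus strand, the middle region scored 170 and 254 in TBLC_PlaB-, beside 462 and 410 in TBLC_Ctrl.

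Genes of the m6A machinery were measured in other cultures, the 0 h samples of actinomycin D courses (2 libraries a group, 17595126 to 19476028 counts in diffTBLC and TBLC). There, edgeR called 11927 of 14463 genes between diffTBLC and TBLC at an adjusted p under 0.05, which is 42.8% higher, 39.7% lower and 82.5% in either direction. Of 20 machinery genes, 7 were higher and 11 lower in diffTBLC, a share called that is near that background, and with library totals as the scale 3 were higher and 13 lower. The median change on the log2 scale was -0.24 over the 20 genes and 0.02 over all genes. Of 8 writer genes 5 were lower and 2 higher, both eraser genes were lower, and of 10 reader genes 5 were higher and 4 lower.

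The catalytic subunit Mettl3 had 33.8 and 34.7 CPM in diffTBLC, against 33.3 and 31.6 CPM in TBLC. The groups did not overlap, but the log2 difference of 0.08 ± 0.06 (SE) was not past the threshold (edgeR adjusted p = 0.203). Its partner Mettl14 was higher, with 47.8 and 49.7 CPM in diffTBLC, against 41.7 and 40.2 CPM in TBLC (log2 difference 0.25 ± 0.05, edgeR adjusted p = 3.3e-06). With library totals as the scale, which moved the median of all genes to -0.18, Mettl3 turned to -0.13 and was called lower (edgeR adjusted p = 0.0261), and the call of Mettl14 was lost.

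Of the scaffold and adaptor subunits most fell. Virma, the large scaffold of the writer complex, had 54.3 and 54.3 CPM in diffTBLC, against 82.8 and 83.3 CPM in TBLC (log2 difference -0.61 ± 0.04, edgeR adjusted p = 2.13e-24). Wtap, which holds the complex in nuclear speckles, had 98.4 and 94.5 CPM in diffTBLC, against 133 and 132 CPM in TBLC (log2 difference -0.46 ± 0.03). In TBLC_Ctrl, the undifferentiated cells of a separate course, Virma had 67.2 and 62.3 CPM and Wtap 101 and 106 CPM. Both genes there lay between diffTBLC and TBLC. Zc3h13, Rbm15b and Cbll1 fell by 0.35, 0.47 and 0.48 on the log2 scale, and Rbm15 was 0.22 higher, a call that both library totals and DESeq2 lost. The erasers Fto and Alkbh5 fell by 0.44 and 0.46.

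Among the readers, the largest change was that of Ythdc2, a helicase that binds m6A, with 13.0 and 15.2 CPM in diffTBLC, against 29.9 and 30.2 CPM in TBLC (log2 difference -1.09 ± 0.07, edgeR adjusted p = 8.82e-24). In TBLC_Ctrl, the undifferentiated cells of a separate course, Ythdc2 had 11.7 and 11.2 CPM, below diffTBLC. The undifferentiated cells of the separate courses thus differed more in Ythdc2 than diffTBLC and TBLC did. Ythdf3 and Ythdc1, a cytoplasmic and a nuclear YTH reader, fell by 0.55 and 0.52, and Ythdf2, which recruits deadenylases, fell by 0.12. Ythdf1 had 155 and 156 CPM in diffTBLC, against 151 and 147 CPM in TBLC, and was not past the threshold (edgeR adjusted p = 0.0698). With library totals it was called lower, at -0.15 (edgeR adjusted p = 9.33e-06). The IGF2BP readers, which stabilise bound transcripts, moved the other way. Igf2bp1 was 0.49 and Igf2bp2 0.47 higher on the log2 scale. Igf2bp3 was 0.18 higher, a call that was lost with library totals (-0.025), with DESeq2 and without TBLC replicate 1. The RNA-binding proteins Hnrnpa2b1 and Hnrnpc were 0.23 and 0.34 higher, the first of them not past the threshold with library totals. Both were higher still in TBLC_Ctrl than in diffTBLC. Hnrnpa2b1 had 2041.2 and 1938.5 CPM in TBLC_Ctrl, against 1764 and 1826 CPM in diffTBLC. Hnrnpc had 775 and 742 CPM in TBLC_Ctrl, against 703 and 713 CPM in diffTBLC.

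**Figure D5:**
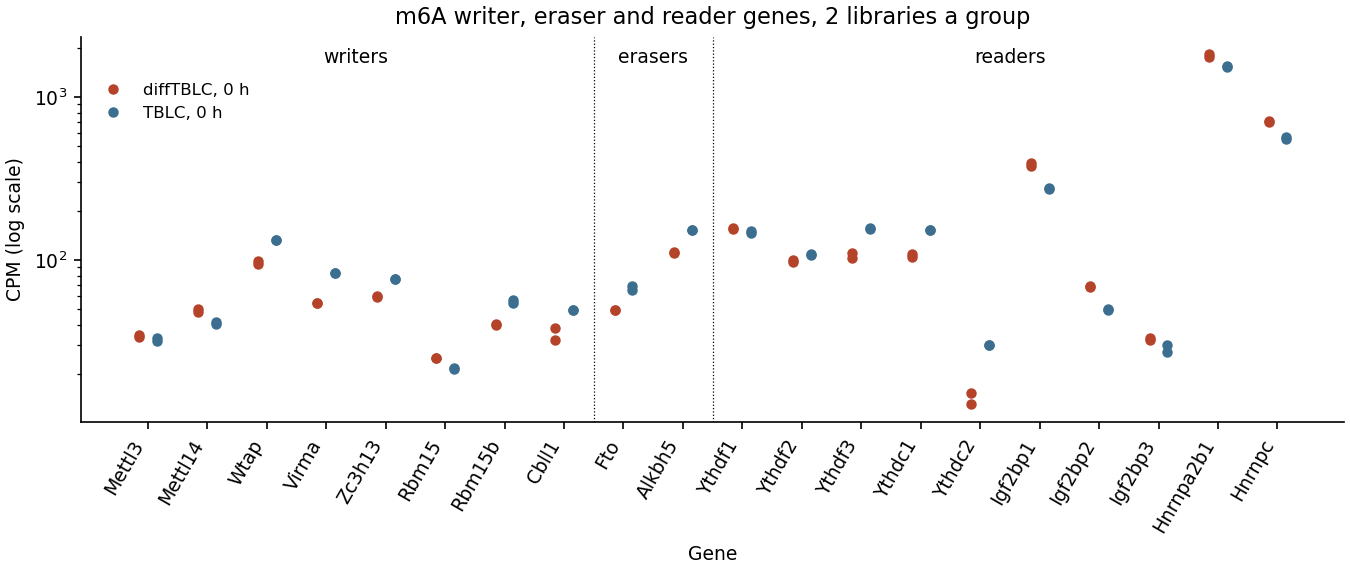
CPM on a log scale of 20 writer, eraser and reader genes in diffTBLC (red, left of each pair) and TBLC (blue, right) at 0 h, with 2 libraries a group drawn as points. Virma, Wtap, Fto, Alkbh5 and Ythdc2 lie lower in diffTBLC and Igf2bp1 and Igf2bp2 higher.

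None of the same genes passed the test after 8 h in SLM. In the course of TBLC_PlaB- and TBLC_Ctrl (14911912 to 17992960 counts at 0 h), edgeR called 177 of 14107 genes, 0.780% higher and 0.475% lower, or 1.25% in all. Of the 20 machinery genes 0 were past the threshold, 2 had an unadjusted p under 0.05, and DESeq2 called 0 of the 13 to which it gave an adjusted p. The largest of the 20 differences was that of Zc3h13, with 105 and 105 CPM in TBLC_PlaB-, against 98.7 and 95.3 CPM in TBLC_Ctrl (log2 difference 0.11 ± 0.04, edgeR adjusted p = 0.179). Mettl3 differed by 0.03 ± 0.06 and Virma by 0.02 ± 0.05. Several of these genes differed between the undifferentiated cells of the separate courses. TBLC_Ctrl had 59.9 and 60.3 CPM of Ythdf3, 28.7 and 28.3 of Cbll1 and 81.6 and 86.7 of Alkbh5, each below diffTBLC. For Fto (81.2 and 78.9 CPM) and Ythdc1 (193 and 184 CPM), TBLC_Ctrl lay above TBLC. The same held for Zc3h13 (98.7 and 95.3 CPM) and Rbm15b (72.1 and 69.2 CPM). For Igf2bp1 (183 and 184 CPM), TBLC_Ctrl lay below TBLC. Differences between the courses were not tested. Each course was filtered and scaled on its own, and the kit of each library is not stated. Culture, kit and scaling therefore cannot be told apart in these differences.

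Marker genes differed between the diffTBLC and TBLC libraries at 0 h, and the part of cell identity in the lost regions was not tested. Of all genes tested in this contrast, 42.8% were higher and 39.7% lower. All 5 primitive endoderm genes (Gata6, Gata4, Sox17, Sox7, Pdgfra) were higher in diffTBLC, with a summed level of 474 and 480 CPM, against 37.8 and 37.4 CPM in TBLC. Of 5 pluripotency genes, Nanog, Sox2, Esrrb and Tfcp2l1 were lower and Pou5f1 higher, with a sum of 2443 and 2400 CPM in diffTBLC, against 3084 and 3072 CPM in TBLC. Of 5 genes of the 2-cell embryo, Zscan4c, Zscan4f and Zfp352 were lower and the other two not past the threshold, with a sum of 39.6 and 38.6 CPM in diffTBLC, against 56.4 and 55.3 CPM in TBLC. Counts of the Zscan4 copies depend on how reads shared between them were assigned. Of 5 fibroblast genes, Col1a1, Col1a2, Dcn and Lum were lower and Thy1 was not past the threshold, with a sum of 85.4 and 80.9 CPM in diffTBLC, against 208 and 214 CPM in TBLC. In TBLC_Ctrl of the separate course the 2-cell sum was 196 and 191 CPM and the fibroblast sum 613 and 629 CPM. The undifferentiated cells of the separate courses thus differed more in the 2-cell sum than diffTBLC and TBLC did. The pluripotency sum in TBLC_Ctrl was 2587 and 2584 CPM, between those of diffTBLC and TBLC and nearer to that of diffTBLC. The primitive endoderm sum in TBLC_Ctrl was 37.9 and 34.5 CPM, close to that of TBLC. None of these 20 marker genes was past the threshold between TBLC_PlaB- and TBLC_Ctrl, where 1.25% of all genes were called. In bulk RNA, fewer cells of a type and less RNA per cell cannot be told apart.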

How the data were processed

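Each peak file holds a score for every peak that the authors deposited, with position and strand, 1 list per replicate. Peak names show calling per replicate and strand. The caller, its threshold and the score's scale are not given in the sources used here. The count tables are as deposited, with whole numbers of reads for each gene symbol. Per the submitters' processing notes, FastQC 0.12.1, Trim Galore, STAR 2.7.11b, Subread, DESeq2 and mm39 were used. Per the labels' protocols RNA was taken with TRIzol and libraries came from either of 2 stranded kits. Which kit served which library is not stated.

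Regions were built by merging peaks of a strand that overlap by at least 1 base. Score and width bins rank the 8107 TBLC regions. For counts, the quasi-likelihood test of edgeR 4.0.16 was used under R 4.3.3 (TMM, filterByExpr, all arm and time means of a table of 16 libraries, contrast at 0 h, Benjamini-Hochberg over all genes tested, threshold 0.05). CPM are scaled on genes left by the filter. Columns named TBLC_S were read as TBLC_PlaB-, the arm of that table that has no columns of its own name. The scripts were tested on simulated data. Regions were named by rank of the lower TBLC_Ctrl score, by presence in TBLC_PlaB- and by stretch size. The 3 widest, and 1 beside a new region, were picked after their values were seen. The members, lists and rules were chosen with earlier results of these data known. Alternatives were other overlaps, scores, list lengths, distances, scalings, filters, DESeq2 1.42.0, a replicate block and leaving out each replicate.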

Additional observations from a re-analysis of the deposited data

How the results depend on the processing

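Counting a diffTBLC peak within 500 bases as shared gave 26.4% lost, of which 19.9% had a retained region within 5000 bases. Asking for overlap of 50% of the shorter interval gave 31.4% lost. With strand ignored 29.9% had such a neighbour. A score of at least 40 in the TBLC_Ctrl lists gave 28.5% lost and 67.3% of these in the TBLC_PlaB- lists. With every list limited to its best 10143 peaks, 68.8% were in the TBLC_PlaB- lists and 25.3% had a retained neighbour. Distances of 1000 and 20000 bases gave 15.7% and 39.4% with such a neighbour. Leaving out 1 TBLC_Ctrl or diffTBLC replicate in turn gave 2929 to 4420 lost regions, 36.1% to 39.8% lost, 49.8% to 68.8% in the TBLC_PlaB- lists and 24.9% to 29.2% with a retained neighbour. The count passed 1.5 times its value without TBLC_Ctrl replicate 1 (4071) and without replicate 2 (4420), where a region needs a peak in only 1 TBLC_Ctrl list, and those added regions lowered the share at 8 h. Of 51 regions named by rank, edge or stretch, 48 were still lost with the 500-base gap, 50 with the 50% overlap, 35 with shortened lists and 37 with scores of at least 40. Shortened lists and score limits only remove peaks. Regions that dropped out there left the TBLC set, as those with a lower score of 20 must, and did not become shared with diffTBLC. The 51 leave out the 3 widest regions and the one on chromosome 10 that lies 72 bases from a new region. With the 500-base gap that chromosome 10 region would count as shared. Overlap of blocks within peaks was not run, since the lists hold no blocks.

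For genes, diffTBLC against TBLC stayed between 11016 and 12118 calls, and library totals moved the share of higher calls to 40.6%, against 51.8%. With library totals Mettl3 (-0.13), Ythdf1 (-0.15) and Igf2bp3 (-0.025) changed sign, and the first 2 were then called lower. TBLC_PlaB- against TBLC_Ctrl gave 177 calls, but 68 with DESeq2, 94 with only the 0 h libraries and 187 with no filter, of which 48.1% were higher. Without 1 replicate it gave 70 to 207 calls, namely 117 and 73 without TBLC_PlaB- replicate 1 or 2 and 207 and 70 without TBLC_Ctrl replicate 1 or 2. With a replicate block it gave 219 calls. Same-numbered libraries did not deviate together (correlations of -1.66e-05 and 0.0164 across genes), so the numbers were not taken to pair them. The causes were not tested.

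Depth of the immunoprecipitations is unknown, so absence from a list means that no peak was called at that depth. With 2 lists a state, no exact permutation test over lists can pass 0.05. Genes, transcript levels and m6A motifs at the lost regions were not analysed here.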
